A study of Drosophila melanogaster with 29 samples.

Results

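The circadian clock genes *per*, *tim*, *Clk*, *cyc*, *vri*, *Pdp1*, *cwo*, *cry*, *dco* and *sgg* were examined in nuclear RNA of adult *Drosophila melanogaster* photoreceptors. They were chosen by name as the core loop, the *vri* and *Pdp1* loop, the light receptor and the clock kinases. All 10 had a row in the deposited table, which holds 7602 genes. The values come from 3 RNA-seq libraries of 1 group, all from male flies at day 10 after eclosion, kept at 25 degrees C in 12 hours of light and 12 hours of dark. Every fly carried the mutant alleles w and ry[506], a UAS-GFP-Msp300KASH transgene at attP2 marked with w+, and an rh1-GAL4 driver marked with ry+. The driver uses the promoter of *ninaE*, the main rhodopsin gene, so the GFP tag on the nuclear envelope marks outer photoreceptors, and tagged nuclei were isolated from heads. The series has no RNA from other cells, ages or hours, and the hour of harvest is not given in the sources used here. The other 26 samples, which were assays of chromatin, were not analysed here.

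The fly clock is a loop of transcription and delayed repression. CLK and CYC form a dimer that activates *per*, *tim*, *vri*, *Pdp1* and *cwo*, and the proteins PER and TIM return to the nucleus and inhibit that dimer. In a second loop VRI represses *Clk* and PDP1 activates it, so RNA of *Clk* cycles in opposite phase to RNA of *per*, *tim* and *vri*. CRY is a blue-light receptor that triggers loss of TIM, and the kinases encoded by *dco* and *sgg* act on PER and TIM. Photoreceptors of the compound eye are known to hold a clock of this kind of their own.

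Over the 7602 genes of the table, replicates 1, 2 and 3 held 3781302, 3051440 and 3769863 reads. Reads outside these genes are not in these sums, which need not be the full depth of the libraries. Levels are given as normalized counts, which are reads divided by the size factor of the library, and 1 read was worth 1.29 to 1.49 of them. For the labelled cell type 14 photoreceptor markers were read, all of which had a row, with 279 (*ninaA*) to 72860 (*rdgA*) normalized counts. All 10 glia markers and all 6 cone and pigment cell markers had a row too, so a row alone does not mark a cell type. The list medians were 20021 for photoreceptors, 44.9 for glia and 44.3 for cone and pigment cells. The highest glia marker, *nrv2*, at 379, exceeded *ninaA*. The median gene of the table had a level of 5.83 on the log2(normalized count + 1) scale, or 56.0 normalized counts. The labels name separate samples but not separate collections of flies, so the spread between replicates may be partly technical. Intervals and tests on reads cover counting error only, since reads can include PCR copies.

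Of the activator pair, *Clk* was far higher than *cyc*. *Clk* (FBgn0023076; dm6 3L:7763233-7775603) had 3910, 3576 and 3934 normalized counts in replicates 1, 2 and 3, from 3040, 2394 and 2976 reads. The libraries were close together, with replicate 2 the lowest, and the mean was 3807 ± 200 (SD, n = 3), at percentile 97.3 of the table's genes. *cyc* (FBgn0023094; 3L:19813770-19815938), which encodes the dimer partner, had 123, 146 and 136 normalized counts. Its mean was 135 ± 11.5 (SD, n = 3), at percentile 67.4, and it rested on 96 to 103 reads per library. The annotated span is 12.4 kb for *Clk* and 2.17 kb for *cyc*. Per kb of span *Clk* had 308 ± 16.2 and *cyc* 62.4 ± 5.29 normalized counts (SD, n = 3), and the libraries of the 2 genes did not overlap on either scale.

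The repressor pair was uneven in the same way, with *tim* above *per*. *tim* (FBgn0014396; 2L:3493986-3508119), whose product is degraded in light, had 1471, 1558 and 1481 normalized counts, a mean of 1503 ± 47.4 (SD, n = 3) at percentile 93.3. *per* (FBgn0003068; X:2685580-2692780) had 102, 111 and 108 normalized counts, a mean of 107 ± 4.66 (SD, n = 3) at percentile 63.1. All libraries of *tim* lay above all libraries of *per*, by 14.1-fold in normalized counts. Per kb of span the means were 106 ± 3.36 for *tim* and 14.8 ± 0.65 for *per* (SD, n = 3), which again did not overlap. *per* rested on 74 to 82 reads per library, and counting error alone gives a coefficient of variation of 11.3% at that depth, above the observed 4.36%.

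In the second loop *Pdp1* stood far above *vri* and *cwo*. *Pdp1* (FBgn0016694; 3L:7811458-7867369), which encodes the bZIP activator of *Clk*, had 7540, 6158 and 8586 normalized counts. Its libraries were the most unequal of the 10 genes, with replicate 3 highest and replicate 2 lowest, around a mean of 7428 ± 1218 (SD, n = 3) at percentile 98.5. *Pdp1* has several promoters and isoforms in flies, only some of which serve the clock, and a value per gene does not separate them. *vri* (FBgn0016076; 2L:5288944-5311223), which encodes the bZIP repressor of *Clk*, had 166, 181 and 181 normalized counts, a mean of 176 ± 8.66 (SD, n = 3) at percentile 71.3. *cwo* (FBgn0259938; 3R:10388258-10400752), which encodes a bHLH-Orange repressor at the sites used by CLK and CYC, had 86.2, 77.7 and 83.3, a mean of 82.4 ± 4.33 (SD, n = 3) at percentile 57.9. It was the lowest of the 10 in normalized counts, from 52 to 67 reads per library.

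*cry*, the light receptor of the clock, was at the level of *per* in normalized counts, and the 2 kinase genes were higher. *cry* (FBgn0025680; 3R:19212154-19215442) had 99.0, 106 and 110 normalized counts, a mean of 105 ± 5.43 (SD, n = 3) at percentile 62.7. Its libraries overlapped those of *per*. *dco* (FBgn0002413; 3R:31054085-31061210), also called doubletime, encodes the casein kinase I that phosphorylates PER, and had 773, 693 and 876 normalized counts. Its mean was 781 ± 92.0 (SD, n = 3) at percentile 88.5. *sgg* (FBgn0003371; X:2633952-2679553), which encodes the fly GSK-3 that phosphorylates TIM, had 11294, 9699 and 11444 normalized counts. It was the highest of the 10 at 10813 ± 967 (SD, n = 3), at percentile 99.1, and replicate 2 was the lowest library. Both kinases act in many pathways besides the clock.

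**Figure D1:**
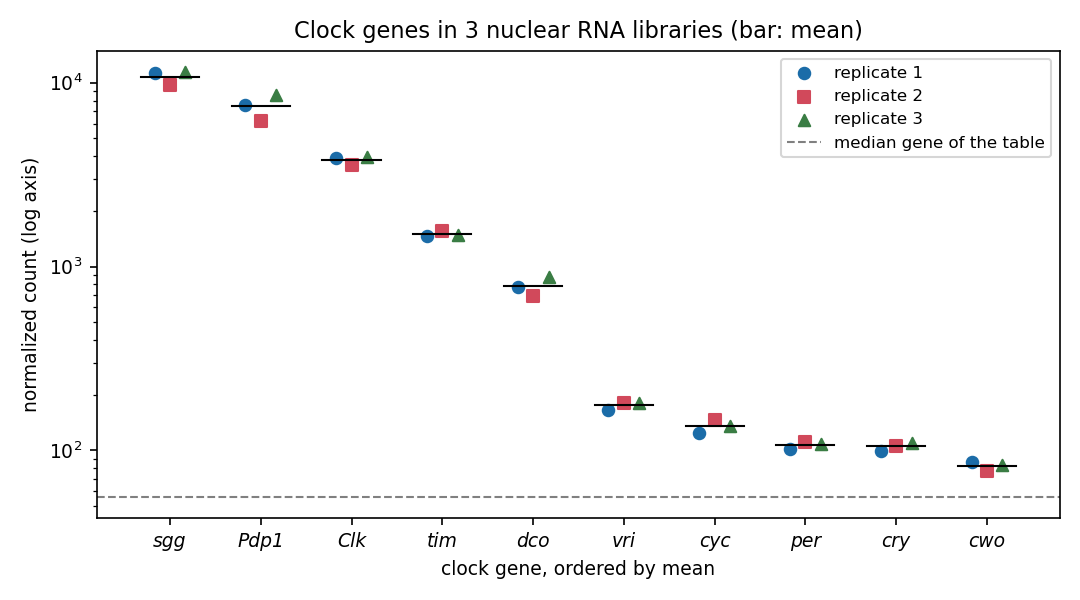
Normalized counts (log axis) of the 10 clock genes in replicates 1, 2 and 3, with a bar at the mean of the 3 libraries and a dashed line at the median gene of the table, 56.0. *sgg*, *Pdp1*, *Clk* and *tim* had means of at least 1000, and the 5 genes from *vri* to *cwo* had means under 200.

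Together the 10 genes held 0.519% ± 0.026 of the table's normalized counts (SD, n = 3), with 0.526%, 0.489% and 0.541% in replicates 1, 2 and 3. All 10 lay above the table median in level, and 4 of them, *sgg*, *Pdp1*, *Clk* and *tim*, were among the top 10% of genes. On the log2 scale their median exceeded that of the table by 2.70. The table's genes were chosen by a filter that is not stated, so its median is not that of the genome.

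Normalized counts were not divided by length, and the spans of the 10 genes run from 2.17 kb (*cyc*) to 55.9 kb (*Pdp1*). Levels between genes were therefore compared per kb of annotated gene span, which includes introns. Whether reads in introns were counted is not given in the sources used here, and exon lengths were not used here. On this scale the order was *Clk*, *sgg*, *Pdp1*, *dco*, *tim*, *cyc*, *cry*, *per*, *vri* and *cwo*. *Clk* rose above both *sgg* and *Pdp1*, with 308 against 237 ± 21.2 for *sgg* and 133 ± 21.8 for *Pdp1* (SD, n = 3). *vri*, with a span of 22.3 kb, fell below *per*, at 7.90 ± 0.39, and *cwo* stayed last at 6.59 ± 0.35 (SD, n = 3). *cry* was at 31.9 ± 1.65 and *dco* at 110 ± 12.9 (SD, n = 3). Against the median of 19.6 per kb over the 7541 genes with a span, 7 of the 10 genes lay above and 3, *per*, *vri* and *cwo*, below. These 3 stood at percentiles 42.3, 27.1 and 23.7 per kb.

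Neighbours in the order per kb were compared as the log2 ratio within each library, which does not depend on how libraries were scaled. There were 9 neighbouring pairs, and an exact sign-flip permutation test over 3 libraries cannot give a two-sided p under 0.25. *dco* and *tim* could not be ordered, with a log2 ratio of 0.04 ± 0.21 (SD) that was above 0 in 2 of 3 libraries (exact p 0.75). In the other 8 pairs the ratio kept its sign in 3 of 3 libraries (exact p 0.25 each). The order was taken from the same 3 libraries, so these signs and p-values give it no separate support. *Pdp1* exceeded *dco* in each library, by 0.27 ± 0.08 on the log2 scale, although the ranges of the 2 genes overlapped across libraries. *Clk* exceeded *sgg* by 0.38 ± 0.06 and *vri* exceeded *cwo* by 0.26 ± 0.14 on the log2 scale, with ranges that did not overlap.

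**Figure D2:**
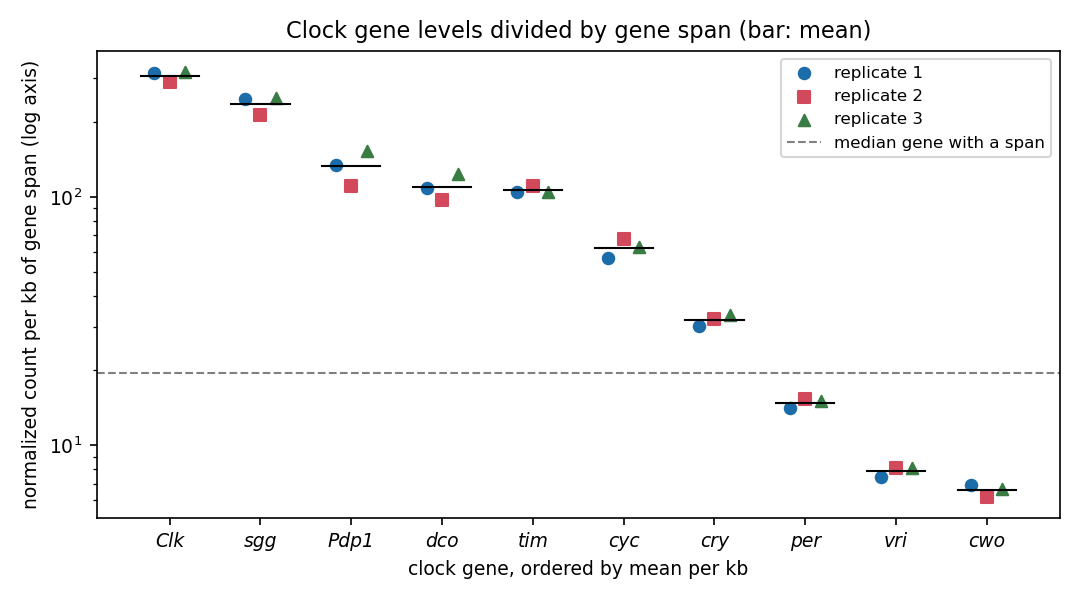
Normalized counts per kb of annotated gene span (log axis) in replicates 1, 2 and 3, with bars at the means and a dashed line at 19.6, the median over the 7541 genes with a span. *Clk* was highest at 308 and *cwo* lowest at 6.59, and the libraries of *dco* and *tim* overlapped.

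The replicates were then compared for each gene, to see which clock genes varied between libraries by more than counting error. Reads of each gene were tested against the size factors by a chi-square test, adjusted by the Benjamini-Hochberg method over all 6903 genes with a mean of at least 10 normalized counts. This test called 4 of the 10 clock genes, against 9.76% of all genes tested. The 4 were *Pdp1* (adjusted p 3.55e-59), *sgg* (adjusted p 1.01e-24), *dco* (adjusted p 0.00725) and *Clk* (adjusted p 0.00991). The call depends on depth: it was made for 48.7% of genes with a mean of at least 1000, where *Pdp1*, *sgg*, *Clk* and *tim* lie, for 14.4% of genes from 200 to 1000, where *dco* lies, and for 3.12% of genes from 50 to 200, where the other 5 lie. *sgg*, at 10813, is deeper still. At means above 10000 the share called was 94.9%, so its call was the usual result at that depth. Of the 4 clock genes above 1000, *tim* was not called (adjusted p 0.665). The coefficient of variation of *tim*, 3.16%, was near the 3.02% that counting error gives.

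The called genes differed in how much they varied. The highest library exceeded the lowest by 1.39-fold for *Pdp1*, 1.26-fold for *dco*, 1.18-fold for *sgg* and 1.10-fold for *Clk*. The coefficient of variation was 16.4% for *Pdp1*, against 1.35% from counting error, and 5.26% for *Clk*, against 1.89%. For the 6 other genes the ratio of highest to lowest library ran from 1.06 (*tim*) to 1.19 (*cyc*). For *per*, *cyc*, *vri*, *cwo* and *cry* the observed variation was below that of counting error, which was 8.82% to 12.9%, so a difference of the size seen in *Clk* was not detectable in them at this depth.

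All 4 called genes were lowest in replicate 2, also with libraries scaled to equal totals over the table's genes or by a trimmed mean. Replicate 2 was the lowest library for 67.7% of all called genes under the deposited scaling, but for 24.9% under equal totals and 58.4% under trimmed mean scaling. Equal totals ended the calls of *Clk* (adjusted p 0.837) and *dco* (adjusted p 0.205) and added *tim* (adjusted p 0.0246), which was then highest in replicate 2. Trimmed mean scaling left *Clk* just outside the threshold (adjusted p 0.0576). Without replicate 2 the one call that remained among the 10 was *Pdp1* (adjusted p 9.98e-11), and *Clk*, *dco* and *sgg* had adjusted p-values of 0.947, 0.235 and 0.786. Without replicate 3 *dco* was not called (adjusted p 0.446), and without replicate 1 all 4 were. *Pdp1* passed the threshold under each of these scalings and left-out libraries.

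*Pdp1* and *sgg*, the 2 clock genes with spans over 40 kb, lay in a length class where replicate 2 was often low. Among tested genes with spans of 40 kb or more, replicate 2 was the lowest library for 258 of 425 (60.7%), against 1437 of 4123 (34.9%) for spans under 5 kb. Under equal totals these shares were 36.2% and 23.0%. Replicate 2 lay below the average of replicates 1 and 3 by a median log2 difference of −0.10 in the long class, and the difference was −0.39 for *Pdp1*, −0.23 for *sgg*, −0.25 for *dco* and −0.13 for *Clk*. Equal totals brought these to 0.01, −0.28, −0.12, −0.14 and −0.02. *dco*, at 7.13 kb, and *Clk*, at 12.4 kb, lie in the class from 5 to 20 kb. There replicate 2 was the lowest for 43.2% of genes under the deposited scaling, with a median difference of −0.04. From 20 to 40 kb the share was 49.3%. The part of gene length in these differences was not tested.

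**Figure D3:**
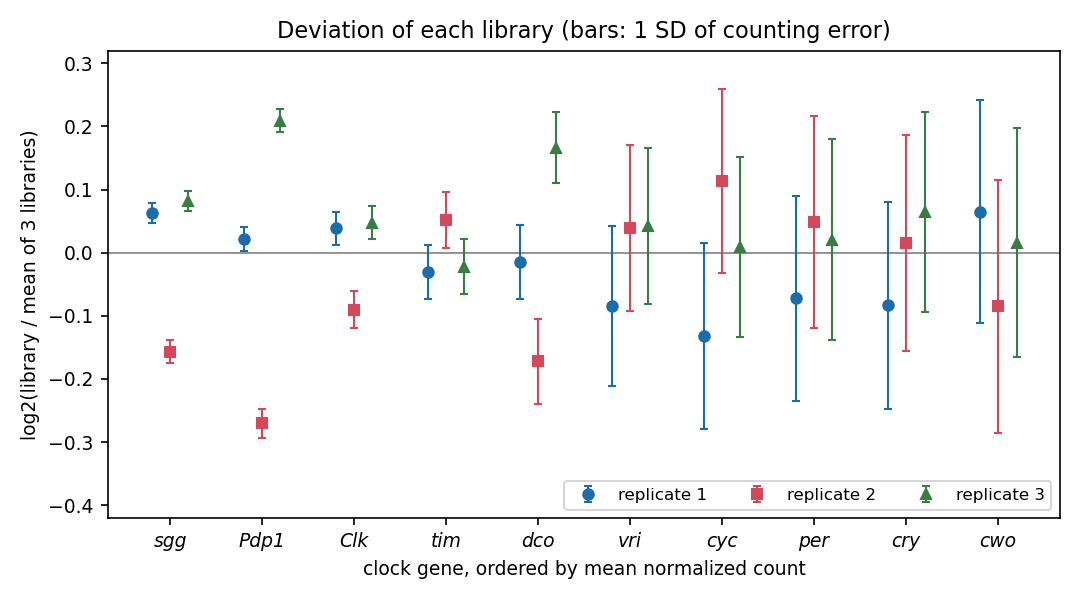
Log2 ratio of each library to the mean of the 3 libraries for each clock gene under the deposited scaling, with error bars of 1 SD of counting error. Replicate 2 lay below the others for *sgg*, *Pdp1*, *Clk* and *dco*, and the error bars of the 3 libraries overlapped for *vri*, *cyc*, *per*, *cry* and *cwo*.

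Ratios between clock genes within a library are free of the scaling between libraries, and genes of opposite phase would shift them if libraries had been taken at different hours. The log2 ratio of *per* to *tim* was −3.86, −3.82 and −3.77 in replicates 1, 2 and 3. These agree within counting error, with an SD of 0.04 against 0.17 expected from counting. *per* and *tim* share a phase in the loop described above, so theirs is not a ratio of opposite phases. The part of the hour in it was not tested. *cwo* to *Clk* was −5.50, −5.52 and −5.56, with an SD of 0.03 against 0.19 from counting. *cry* to *Clk* ran from −5.30 to −5.08 with an SD of 0.11, below the 0.17 of counting error, and *vri* to *Clk* from −4.56 to −4.31 with an SD near that of counting error, 0.13. Shifts smaller than counting error would not be seen in these ratios. In the summary below *cry* stands on the side of *Clk*, so *cry* to *Clk* is not a ratio of opposite phases. *tim* to *Clk*, of opposite phase and with more reads, had a mean of −1.34 and an SD of 0.12 against 0.05 from counting.

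Each of the 9 ratios with *Pdp1* had a larger SD than counting error gives. The log2 ratio of *Pdp1* to *Clk* was 0.95, 0.78 and 1.13 in replicates 1, 2 and 3, with an SD of 0.17 against 0.03 from counting. *vri* to *Pdp1*, the repressor and the activator of *Clk*, was −5.51, −5.09 and −5.57, with replicate 2 apart from the other two. *Clk* to *cyc* was 4.98, 4.61 and 4.85, with an SD of 0.19 against 0.15. *dco* to *sgg* ran from −3.87 to −3.71, with an SD of 0.08 against 0.06. Over all 45 pairs of the 10 genes, the SD exceeded that of counting error in 22. That was so for 9 of the 9 pairs with *Pdp1*, 7 of 9 with *sgg*, 7 of 9 with *dco*, 5 of 9 with *Clk*, and 1 of 9 with *cwo* or *cry*. By the chi-square calls, it was so for 0 of 15 pairs without a called gene, 16 of 24 pairs with 1 and 6 of 6 pairs with 2. Pairs share genes, so they are not independent, and the count follows the calls of single genes. An SD of 3 libraries can exceed that of counting error through counting alone, so a small excess is not a call. The excess of *Pdp1* to *cwo* was 0.191 against 0.187.

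As a summary of opposite phases, the sum of *per*, *tim* and *vri* was set against the sum of *Clk* and *cry*. The log2 ratio was −1.21, −0.99 and −1.19 in replicates 1, 2 and 3, with a mean of −1.13 ± 0.12 (SD, n = 3) against 0.05 from counting error. Replicate 2 was the highest and stood apart from the other two. The first sum is mostly *tim* and the second mostly *Clk*, so this ratio follows those 2 genes. The hour of harvest of each library is not given in the sources used here, and its part in this difference was not tested.

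**Figure D4:**
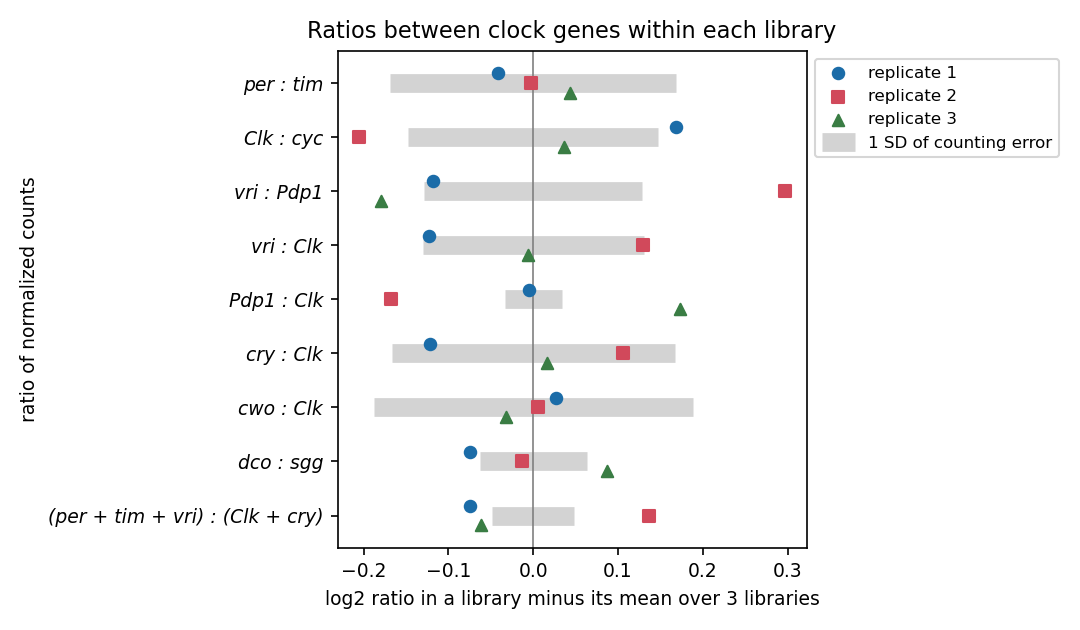
Log2 ratio of normalized counts between clock genes in each library, minus its mean over the 3 libraries, with a grey band of 1 SD of counting error on each side. *per* to *tim* and *cwo* to *Clk* stayed inside the band, while *Pdp1* to *Clk* and *vri* to *Pdp1* had replicates 2 and 3 outside it.

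Some of the genes lie close together, and others share sequence with neighbours. *sgg* and *per* are 6.03 kb apart on the X chromosome with 3 annotated genes between them, and *sgg* had 101-fold more normalized counts, or 237 against 14.8 per kb. *Clk* and *Pdp1* are 35.9 kb apart on 3L with 1 annotated gene between them. Inside the span of *Clk* lies *CG32371* (3L:7767269-7768352), with 205 normalized counts, against 3807 for *Clk*. *cry* shares 9 bases with *vib*, which had 627 normalized counts, and *per* shares 49 bases with *dyw*, which had no row. *tim*, *vri*, *cry* and *sgg* each overlap an annotated long noncoding RNA that had no row. Counting by strand is not given in the sources used here, so reads of overlapping genes may not be told apart. *cyc*, *Pdp1*, *cwo* and *dco* overlapped no other annotated gene.

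Other genes that act on the clock were read from lists of 27 regulators, of which 26 had a row and were tested. Of these 8 were called for spread between libraries, and calls follow depth. With a mean of at least 1000, 3 of 9 regulators were called, against 48.7% of all genes of that depth, with 200 to 1000 it was 5 of 14, against 14.4%, and with 50 to 200 it was 0 of 3, against 3.12%. The count of 8 was 2 without replicate 3, 5 without replicate 1 and 5 without replicate 2. All 26 lay above the table median in normalized counts, and per kb of span 24 lay above the median of 19.6, with *nmo* and *brm* below it.

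Among kinases, phosphatases and turnover factors of clock proteins, 11 of 12 had a row, with a median of 70.0 normalized counts per kb against 84.4 for the 10 clock genes. Casein kinase II, which phosphorylates PER and TIM, was called in both subunits. *CkIIalpha* had 217, 224 and 309 normalized counts (adjusted p 0.00649) and *CkIIbeta* 749, 666 and 895 (adjusted p 9.48e-05), highest in replicate 3 in each case. Neither was called without replicate 3, with adjusted p-values of 0.954 and 0.419. *wdb*, a regulatory subunit of protein phosphatase 2A, was the highest of the list in normalized counts, with 4130, 3522 and 4396 (adjusted p 5.41e-14), and was not called without replicate 2 (adjusted p 0.147). *slmb*, the F-box protein that targets PER (adjusted p 0.035), and *Cul3*, a ubiquitin ligase scaffold (adjusted p 0.00949), were called as well. Both calls ended without replicate 1 (adjusted p 0.255 and 0.154) and without replicate 3 (0.637 and 0.594), and that of *slmb* also under equal totals (0.073) and trimmed mean scaling (0.0511). *Pp1-87B* was the lowest at 223 ± 21.0 normalized counts (SD, n = 3). *bdbt*, whose product binds the kinase encoded by *dco*, had no row.

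The mRNA and translation regulators had a median of 108 normalized counts per kb, and all 6 had a row. *Atx2*, the Ataxin-2 gene that promotes translation of *per*, was the highest in normalized counts, with 1700, 1671 and 1634, and its partner *tyf* had 1410, 1229 and 1297. Neither was called, with adjusted p-values of 0.836 and 0.0843. *lark*, an RNA-binding protein gene, was called (adjusted p 0.0159) but not without replicate 1 (0.0508) or replicate 3 (0.872). *nonA*, another RNA-binding protein gene, was called (adjusted p 0.0478) but not without replicate 2 (0.439) or replicate 3 (0.495), nor under equal totals (0.583) or trimmed mean scaling (0.112). *Lsm12*, listed in the annotation as Lsm12a, was the lowest at 101 ± 8.76 normalized counts (SD, n = 3).

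The 9 transcription cofactors had a median of 30.9 normalized counts per kb. *E75*, a nuclear receptor gene of the ecdysone pathway that also acts on *Clk*, was the highest in normalized counts, with 3655, 3007 and 3715 over a span of 114 kb. It was the one gene of this list that was called (adjusted p 2.18e-12), and not so without replicate 2 (0.87). Equal totals gave 3 calls in this list, adding *nej* (0.00345) and *kay* (0.0421). *Usf* was the lowest at 128 ± 6.23 normalized counts (SD, n = 3).

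Light input genes ranged widely. *norpA*, the phospholipase C of phototransduction, had 71061 ± 5907 normalized counts and *ninaE* 30124 ± 1225 (SD, n = 3), and both were called (adjusted p 2.34e-147 and 1.44e-14), at means above 10000, where 94.9% of all genes were called. *jet*, whose F-box protein marks TIM for degradation after light, had 68.2, 56.8 and 63.5 normalized counts from 38 to 53 reads, or less per library than *cry*. Divided by its span of 1.58 kb this is 39.8 per kb, against 31.9 for *cry*. *Rh7* was the lowest of the list at 24.1 ± 7.87 normalized counts (SD, n = 3).

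Genes listed as clock outputs were also uneven. *slo*, a calcium-activated potassium channel gene, was the highest with 26194, 22825 and 28787 normalized counts, and *dysc*, a scaffold gene that acts with it in flies, had 17624, 14922 and 18666. *Slob*, whose protein binds the channel, had 8748, 8030 and 8894. These 3 and *nocte* were called by the chi-square test, with adjusted p-values of 3.17e-103, 1.94e-64, 9.21e-07 and 0.0308. *nocte* is a gene of temperature entrainment, so the list is not of outputs alone. The called genes are 4 of the 5 in this list with a mean of at least 1000, where 48.7% of all genes were called. *slo* and *dysc* had means above 10000, where the share was 94.9%. *Slob* was not called without replicate 2 (0.746) or under equal totals (0.77), and *nocte* not without replicate 1 (0.89) or replicate 3 (0.147). *to*, or takeout, an output gene of head fat body and other tissues, was the lowest at 8.04 ± 4.59 normalized counts (SD, n = 3).

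**Figure D5:**
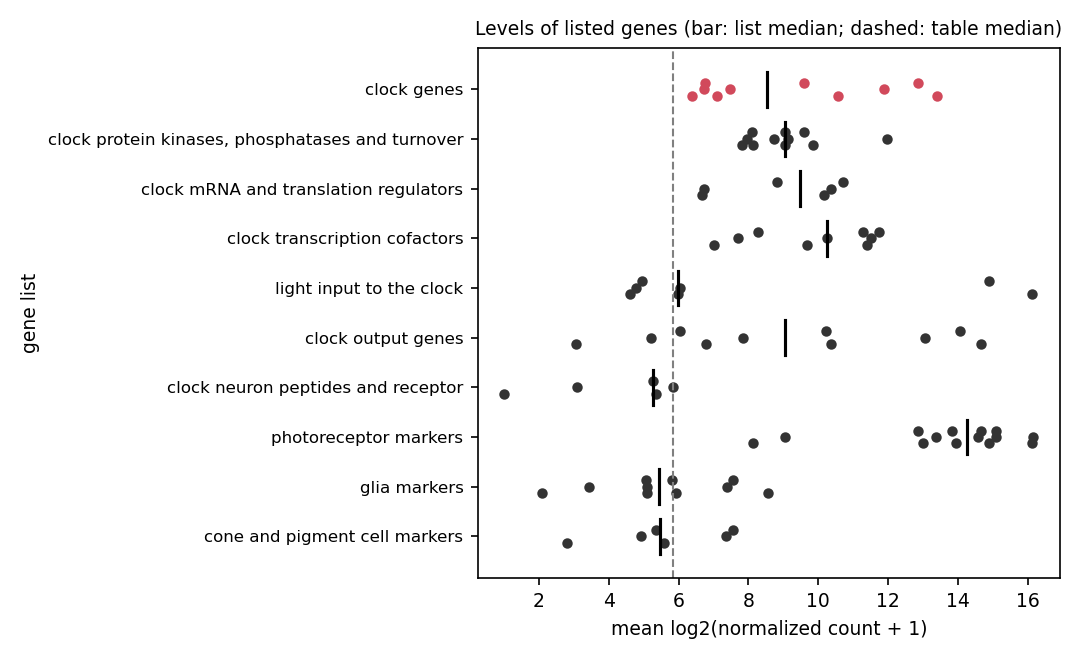
Mean log2(normalized count + 1) of each listed gene with a row, with a bar at the list median and a dashed line at the table median of 5.83. The 10 clock genes all lay to the right of the dashed line, and clock neuron genes, glia markers and cone and pigment cell markers had list medians to the left of it.

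Clock genes are also active in clock neurons of the brain and in glia, so markers of those cells were read in the same libraries. *Pdf*, the neuropeptide of the ventral lateral clock neurons, had 1, 0 and 2 reads. Of 8 clock neuron peptide and receptor genes 5 had a row, *ITP* was the highest at 56.8 ± 7.80 normalized counts (SD, n = 3), and *NPF*, *CCHa1* and *Trissin* had no row. The 5 genes ran from 0.53 to 2.64 normalized counts per kb, below the lowest clock gene, *cwo*, at 6.59.

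Glia markers were present at low levels in each library. All 10 had a row, and their summed share of the table's reads was 0.0191%, 0.0219% and 0.0193% in replicates 1, 2 and 3. *repo*, the defining glial transcription factor gene, had 28.3, 49.3 and 26.4 normalized counts, and *nrv2* was the highest of the list at 379 ± 29.0 (SD, n = 3). Per kb the glia markers ran from 1.21 to 41.7. *cry*, *per*, *vri* and *cwo*, 4 of the 10 clock genes, lay within that range, and the other 6 lay above it. In bulk nuclei, fewer expressing cells and less RNA per cell cannot be told apart, and the part of glial RNA in the levels of these 4 genes was not tested. All 6 cone and pigment cell markers had a row, from *Crys* at 6.52 ± 3.46 to *ct* at 190 ± 18.9 normalized counts (SD, n = 3), and they ran from 1.67 to 113 per kb, the range in which 7 of the 10 clock genes lie. Of the 17 glia, clock neuron, cone and pigment cell markers deep enough to test, 0 were called for spread by the chi-square test, and 1, *repo*, had an unadjusted p under 0.05 (0.0367). All of them but *nrv2* had means under 200, where few genes are called, 3.12% from 50 to 200 and 2.28% from 10 to 50, so the 0 is near the background. Of the 14 photoreceptor markers 9 were called, *ninaE*, *trp*, *trpl*, *norpA*, *Arr1*, *Arr2*, *chp*, *rdgA* and *rdgB*. These 9 are among the 12 with a mean of at least 1000, where 48.7% of all genes were called. Their means ran from 10503 (*rdgB*) to 72860 (*rdgA*), and of all genes with a mean of at least 10000, 94.9% were called. *ninaC*, also that deep at 34647, was not called. The count of 9 was 5 without replicate 2, 6 without replicate 3 and 11 under equal totals.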

How the data were processed

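The authors deposited log2 values for 7602 genes in 3 nuclear RNA-seq libraries, named by FlyBase identifiers. Counts were normalized with DESeq2 per the submitters' processing notes, which also name Trimmomatic, STAR, SAMtools, dm6 and BDGP6 without roles. The counting program, annotation release, strandedness and gene filter are not given in the sources used here. With v a deposited value, 2 to the power v, less 1, was a whole number of steps in 100% of cases, within 0.001 of a step; the step is the worth of 1 read in its library, so reads could be recovered. The table has 0 columns of values without a sample. The files hold log2 values where the design had provided for recovery of reads, so the test ran on recovered reads.

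Symbols matched 7553 genes, and 3 listed symbols matched through older names. Spans and positions came from RefSeq's Release 6 plus ISO1 MT annotation, the assembly of dm6. With 1 group, no test between groups was possible. Computation used scipy 1.17.1, pandas 2.3.3, numpy 2.4.6 and matplotlib 3.10.9 under Python 3.11.15, and the chi-square test was tested on simulated data. Alternatives were the pseudocount, the minimum mean, the threshold, the scaling, the length and leaving out each library. Named are the 10 clock genes and, of each other list, the highest, the lowest, the called genes and those without a row; other genes were chosen after their values were seen. The 10 genes and all lists were chosen with earlier results of these data known.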

Additional observations from a re-analysis of the deposited data

How the results depend on the processing

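The 10 clock genes gave 4 calls, between 1 and 4 with one replicate left out; the 1 came without replicate 2. The 27 listed regulators gave 8 calls, 5 at an adjusted p under 0.01, and 2 to 5 with one replicate left out. All genes gave 674 calls (1442 at an unadjusted p under 0.05), 448 at an adjusted p under 0.01, and 243 to 681 with one replicate left out, where fewer libraries were compared. The median level of the clock genes above the table median went from 2.70 to 2.53 at pseudocount 10 and to 2.38 when genes under a mean of 10 were dropped, which raises the median compared with. The ratio of *per*, *tim* and *vri* to *Clk* and *cry* lay between −1.20 and −1.09 when single replicates were dropped, and the share of counts from 0.508% to 0.533%. Without division by length, a setting chosen after seeing the data, 38 of 45 pairs of clock genes kept their order. Division by exon or coding length was not run, since the reference tables used here hold gene spans. For single genes and pairs, 180 values kept their call or moved by less than 1 SD, 12 moved further, 7 lost and 1 gained a call, and none changed sign. Depth limits *cwo*, *per* and *cry*, which rest on 52 to 83 reads per library. No paired analysis was possible because the values belong to 1 group only.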
